A study of Mus musculus with 15 samples.

Results

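The step from day 7 to day 14 after bleomycin was followed in mouse lung by comparing 4 day 14 libraries with 4 day 7 libraries over all genes counted. These 8 libraries were taken by the day in their titles from the 15 of the series, the others being 4 of day 0 and 3 of day 21. The titles thus number 4 replicates at days 0, 7 and 14, whereas the design text of the series counts 3 at every time. All were made from polyadenylated RNA of the whole lung of C57BL/6 mice, and the study's methods describe the animals as males of 10 to 12 weeks. The lungs of days 7 and 14 had received bleomycin at 5 U/kg through the trachea, and those of day 0 had not, although the treatment label of day 0 replicate 4 names bleomycin against its title. Day 0 and day 21 enter here as reference levels and through the filter on low counts and the shared estimate of the spread. They also help to set the slope of the mitochondrial covariate described below. The labels do not say whether each replicate was a separate animal, so p-values measure the spread between these libraries. A whole lung mixes many cell types, and fewer cells of a type cannot be told apart from less RNA per cell.

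Bleomycin breaks DNA and kills alveolar epithelium. In mice the injured lung passes through an inflammatory stage, in which leukocytes fill the airspaces, into a fibrotic stage, in which activated fibroblasts lay down collagen, elastin and other matrix. Macrophages derived from monocytes take up debris and settle beside the fibroblasts as this happens, and the airway and alveolar epithelium is rebuilt to a varying degree.

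The 8 libraries held 16183818 to 18020661 counts and 22800 to 23852 genes with at least 1 count. Spearman correlations of log2 CPM (counts scaled to library size) had a median of 0.986 within day 7, 0.9795 within day 14 and 0.973 between the days. The share of counts from 16 mitochondrial genes was 2.03% to 2.15% in the 4 day 7 libraries and 2.1% in day 14 replicate 1, but 3.79%, 4.14% and 3.74% in day 14 replicates 2, 3 and 4. The labels name no batch that goes with it. Therefore 3 further fits were made. In 1 the log2 of this share was a covariate. Another set day 14 replicate 1 alone against day 7, in which the lone library is assumed to vary like the others. The last set day 14 replicates 2 to 4 against day 7. The fit of replicate 1 kept only libraries under 2.5% share, without day 21 and day 0 replicates 3 and 4, and filtered low counts without day groups. That of replicates 2 to 4 kept all libraries of the other days and the filter by day group. Their calls thus differ by more than the day 14 libraries. Values from the 3 fits are given beside some of the named genes and beside the main lists whose calls they moved. The part of this share in the results was not tested beyond these fits.

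Of 33340 genes in the table, 17457 had enough counts to be tested with edgeR's quasi-likelihood test. A gene is termed called where its p, adjusted by Benjamini-Hochberg, was under 0.05 and it changed over 1.5-fold. Changes are given as log2FC, the log2 fold change of day 14 over day 7, ± its standard error. By this rule 484 genes were higher at day 14 (2.77% of those tested) and 564 were lower (3.23%). The median absolute log2 fold change of the 1048 called genes was 1.16, and the median over all genes tested was 0.0039. The 4 day 14 libraries lay wholly above the 4 of day 7 for 7.9% of genes and wholly below for 8.36%, and 950 of the called genes were among them. In each of the 8 fits that left out 1 library, 106 of the higher genes (0.607% of those tested) and 134 of the lower genes (0.768%) were called again, and these are termed held. With the mitochondrial covariate 0.642% of genes were called higher and 0.607% lower. They included 162 of the 1048. Where a named gene was called in that fit as well it is said so below, and the call of every other named gene ended with it. Day 14 replicate 1 alone left 14573 genes after the filter on low counts, gave 3.72% higher and 3.75% lower and called 302 of the 1048. It fitted 867 of these, and 864 had the sign of the fit of all libraries. Replicates 2 to 4 gave 3.69% and 3.78% of 17409 genes and called 878, and the sign was kept for all 1048 there and with the covariate.

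**Figure D1:**
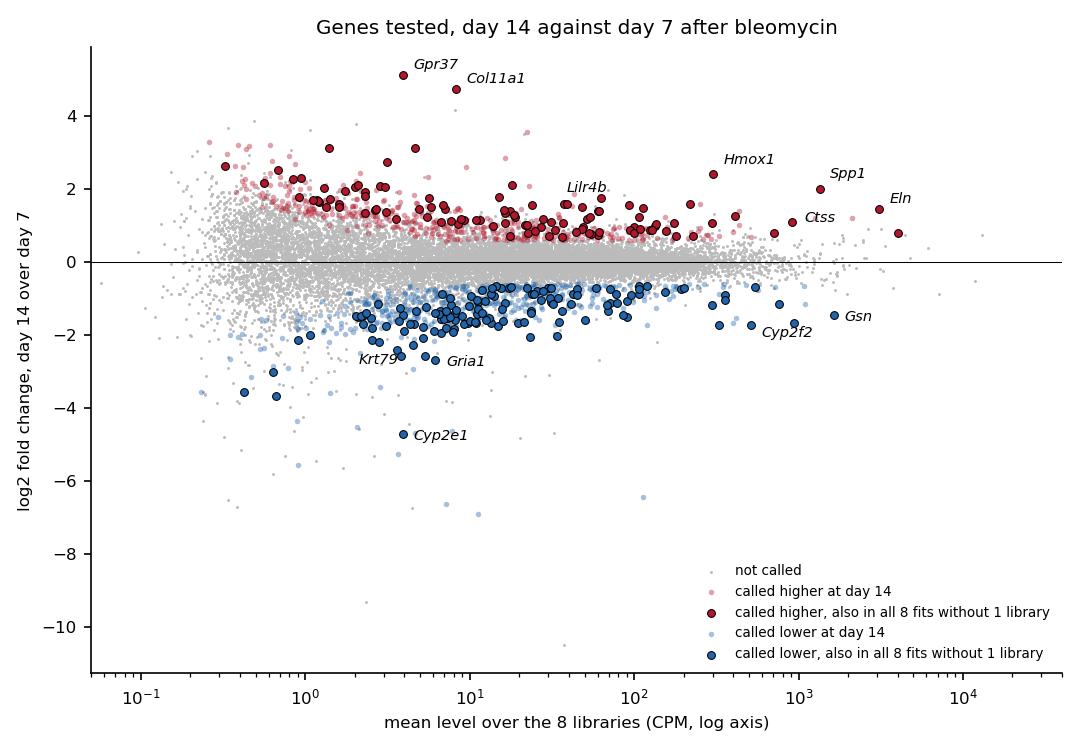
Each point is 1 of the 17457 genes tested, with its mean level over the 8 libraries (CPM, log axis) on the x axis and its log2 fold change of day 14 over day 7 on the y axis. Outlined points are the 240 held genes, of which Spp1 at 2.01 and Eln at 1.44 are among the abundant rises and Gsn at -1.45 and Cyp2f2 at -1.72 among the abundant falls.

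Levels at both days were also set against uninjured lung. Of the 564 genes that fell, 513 had a day 14 mean below the range of the 4 day 0 libraries, and 274 had a day 7 mean still inside that range. Of the 484 genes that rose, 310 had a day 14 mean above the day 0 range and 171 had one inside it. Of the same 484, 224 had a day 7 mean below that range. These counts describe positions of means and carry no test.

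**Figure D2:**
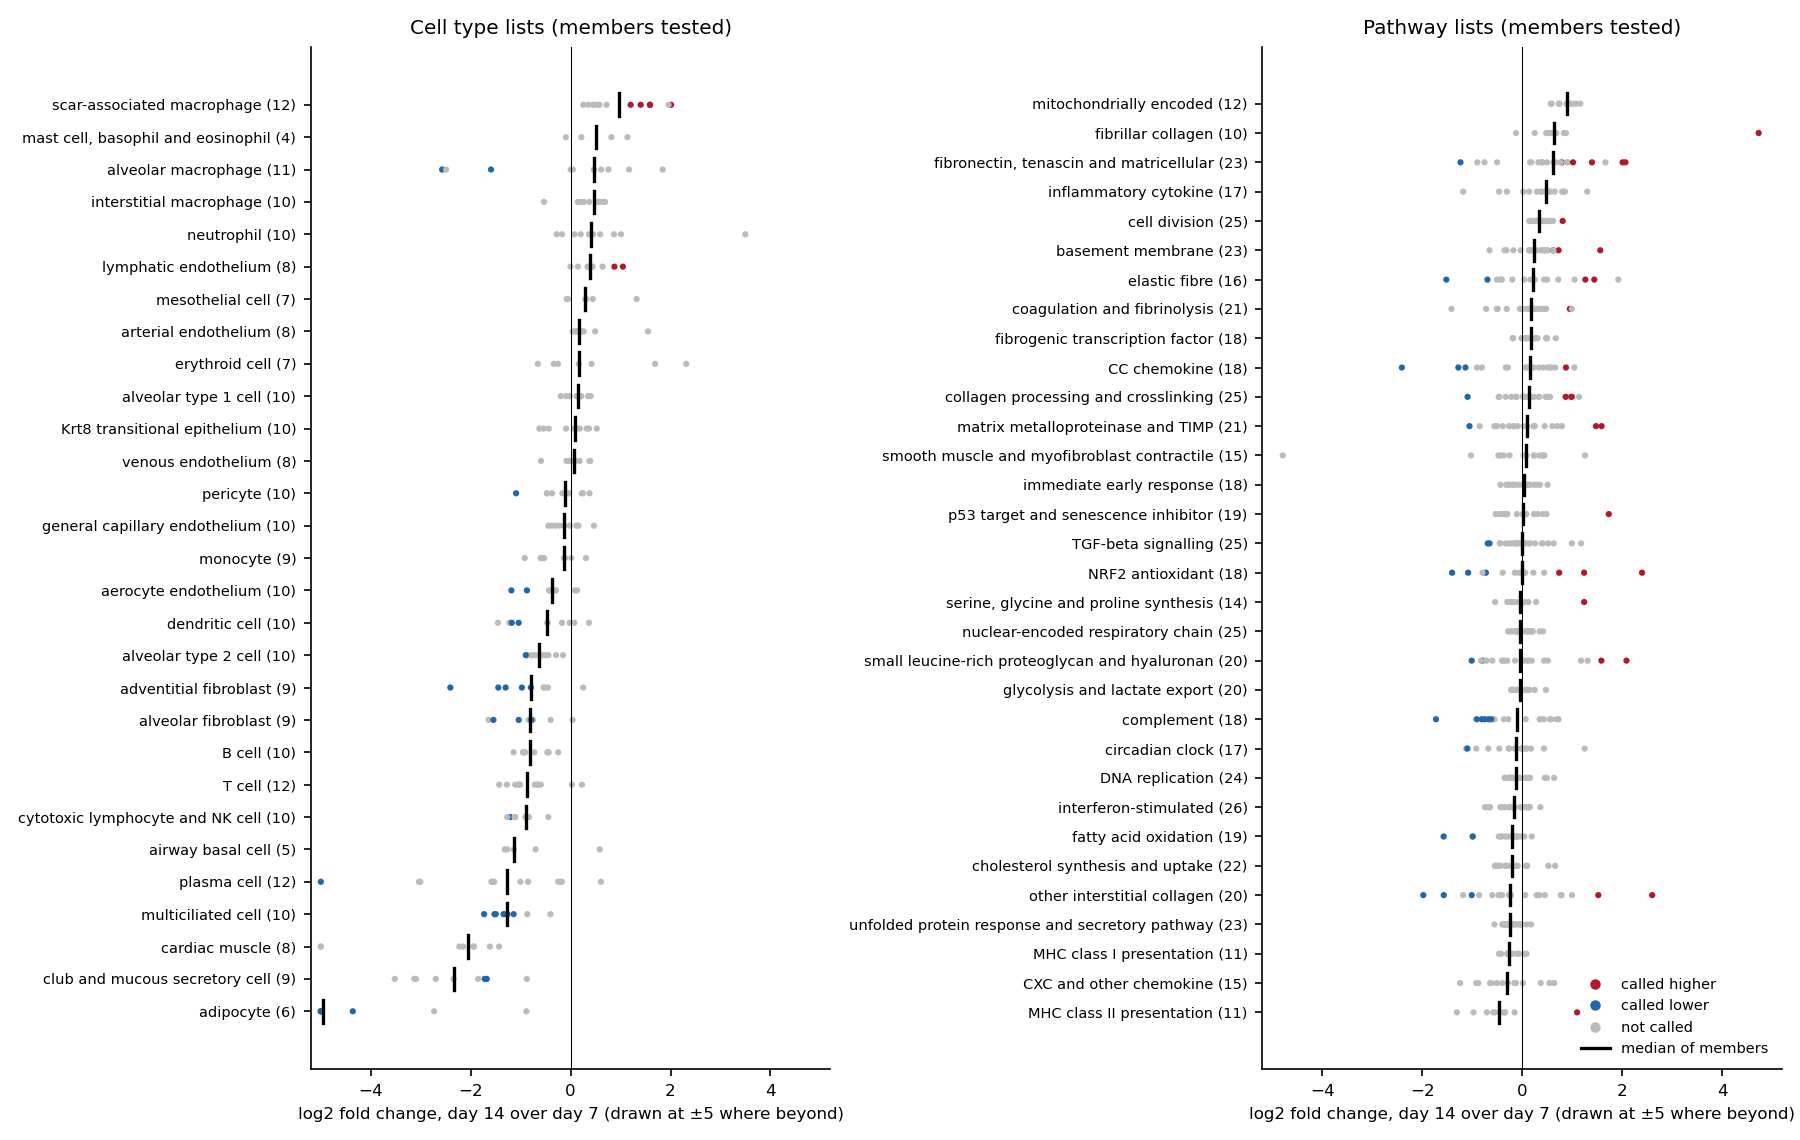
Points give the log2 fold change of day 14 over day 7 for the tested members of 29 cell type lists (left) and 32 pathway lists (right), with the number tested in brackets. Red points were called higher, blue points called lower, grey points not called, and black bars are list medians, which run from 0.96 for scar-associated macrophage genes down to -2.34 for club and mucous secretory genes among lists without values drawn at the edge.

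Of the 61 lists, 28 had no gene called by edgeR. Over all 17457 genes tested 4372 had an unadjusted p under 0.05, and over all genes DESeq2 called 1641 and limma voom 995. Of the 374 tested members of the 28 lists, counted once in each list, 78 had such a p, DESeq2 called 21 and limma voom 1. The DESeq2 calls were 6 higher in the mitochondrially encoded list, 4 lower in the T cell list, 2 lower in each of the cardiac muscle list and that of chemokines outside the CC class, and 1 in each of 7 others.

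Some genes of the macrophages that gather in scars rose. The scar-associated macrophage list had 12 members, all tested and all positive, with a median of 0.96, and 5 rose. Its summed level was 2921 to 4421 CPM at day 7, 12531 CPM in day 14 replicate 1 and 5351 to 8370 CPM in the other day 14 libraries. Spp1 (ENSMUSG00000029304, chr5:104435118-104441050), which encodes osteopontin, a secreted matrix protein that binds integrins, stood at 745, 523, 494 and 371 CPM at day 7 and 3778, 2260.1, 1275 and 1284 at day 14, in the order of the replicates. Every day 14 library lay above every day 7 library, and replicate 1 was the highest (log2FC 2.01 ± 0.40, adjusted p = 0.0126). Trem2, a lipid-sensing receptor of phagocytes, was at 44.6, 36.6, 31.2 and 22.7 CPM at day 7 and 114, 103, 62.1 and 78.6 at day 14 (log2FC 1.40 ± 0.25, adjusted p = 0.00814). Gpnmb, a lysosomal membrane glycoprotein of loaded macrophages, was at 137, 86, 119 and 92.6 CPM at day 7 and 409, 311, 212 and 373 at day 14 (log2FC 1.59 ± 0.31, adjusted p = 0.0121). Neither overlapped between the days, and all 3 genes were held and called with the covariate as well (Spp1 2.48, Trem2 1.37, Gpnmb 1.79). For comparison, the day 0 mean of Spp1 was 60.6 ± 21.7 CPM (SD, n = 4), that of Trem2 4.35 ± 1.43 CPM and that of Gpnmb 22.5 ± 5.45 CPM.

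Apoe, an apolipoprotein that macrophages release to carry cholesterol, was at 1614, 1056, 1447 and 1026 CPM at day 7 and 5096, 2927, 1643 and 2169 at day 14, also without overlap (log2FC 1.20 ± 0.29, adjusted p = 0.026). It was called with the covariate (1.46), and its call was lost without day 7 replicates 2, 3 or 4 or day 14 replicate 2 (adjusted p up to 0.0803). Mmp12, the macrophage elastase, was at 172, 176, 94.1 and 56 CPM at day 7 and 501, 144, 451 and 405 at day 14. Replicate 2 of day 14 fell among the day 7 libraries while the others exceeded all of day 7 (log2FC 1.59 ± 0.44, adjusted p = 0.0393), and the call was kept without day 7 replicate 2 or day 14 replicate 2 and lost without any other library (adjusted p up to 0.105). The list gave 8 calls with day 14 replicate 1 alone and 4 with replicates 2 to 4, and its medians there were 1.47 and 0.75.

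Some lysosomal proteases and inhibitory receptors of myeloid cells also rose. Ctss, the cathepsin that trims the invariant chain of MHC class II, was at 815, 478, 569 and 471 CPM at day 7 and 1537, 1262, 949.9 and 1246 at day 14 (log2FC 1.10 ± 0.21, adjusted p = 0.0114), with all day 14 libraries above day 7, and was called with the covariate (1.30). Of 13 cathepsin genes tested, a family chosen after the values of single genes were seen, 4 rose (30.8%, against 2.77% of all genes) and none fell. They were Ctss, Ctsd (0.78), Ctsk (1.22), the collagen-cleaving protease of osteoclasts, and Ctsl (1.02), of which Ctss and Ctsd were held and Ctss and Ctsl were called with the covariate. Of 6 genes of the mouse leukocyte immunoglobulin-like receptors, a family chosen in the same way, 3 rose and were held. Lilr4b was at 48.8, 51.9, 34.7 and 52.3 CPM at day 7 and 154, 145, 136 and 120.4 at day 14, a tight rise in all 4 libraries (log2FC 1.56 ± 0.15, adjusted p = 0.000265). Lilrb4a was at 19.2, 19.3, 13.5 and 26.2 CPM at day 7 and 44, 52.2, 77.9 and 60.1 at day 14 (log2FC 1.58 ± 0.19, adjusted p = 0.00128). Lilr4b and Lilrb4a are close copies of each other, so the division of reads between them is uncertain. Pirb, the third, was at 48.4, 48.7, 38.2 and 42.6 CPM at day 7 and 91.3, 75.2, 73.8 and 74.5 at day 14 (log2FC 0.82 ± 0.14, adjusted p = 0.00713). All 3 were called in replicate 1 alone, in replicates 2 to 4 and with the covariate.

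Among the remaining largest held rises, Hmox1, the heme oxygenase that degrades heme in iron-recycling macrophages, was at 111, 112, 78.4 and 83.6 CPM at day 7 and 464, 1189.5, 259 and 120.3 at day 14. The day 14 libraries spread widely, and replicate 4 lay just above the highest day 7 library (log2FC 2.40 ± 0.49, adjusted p = 0.0146). Its call ended with the covariate (2.32, adjusted p = 0.0811). Wfdc17, a small secreted protein of activated macrophages, was at 33.1, 36.2, 22 and 24.5 CPM at day 7 and 141, 125, 61.6 and 62.5 at day 14, with no overlap (log2FC 1.75 ± 0.31, adjusted p = 0.00725). Atp6v0d2, a subunit of the proton pump that acidifies the phagolysosome, had a log2 fold change of 0.96 (adjusted p = 0.00486), was held, and was named after its values were seen. Of the 21 genes of that pump's family 2 rose and 1 fell, Atp6v1c2 (-0.94, adjusted p = 0.0266), which was also called with the covariate (-1.57). Stra6l, which encodes a receptor of retinol-binding protein, was at 3.23, 2.06, 2.42 and 2.62 CPM at day 7 and 7.09, 8.48, 8.64 and 10.8 at day 14 (log2FC 1.76 ± 0.28, adjusted p = 0.00496). Mfsd2b, a sphingosine-1-phosphate exporter, was at 2.72, 3.52, 3.46 and 4.22 CPM at day 7 and 12.3, 13.4, 8.93 and 6.58 at day 14 (log2FC 1.56 ± 0.26, adjusted p = 0.00496). For each of these 2 genes the day 14 libraries lay above those of day 7. Wfdc17, Atp6v0d2 and Mfsd2b were also called with the covariate.

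Resident macrophage lists gave few calls. The alveolar macrophage list had a median of 0.47 over 11 members, of which 8 were positive, none rose and 2 fell. Krt79, a keratin that marks alveolar macrophages in mouse lung, was at 11, 4.07, 13 and 8.74 CPM at day 7 and 0.354, 2.36, 1.14 and 2.35 at day 14, so that every day 14 library was below every day 7 library (log2FC -2.57 ± 0.44, adjusted p = 0.00676). The fall was held and was called with the covariate (-2.90), and the day 0 mean was 34.9 ± 5.07 CPM. Cidec, a lipid droplet protein, was at 5.66, 3.79, 6.32 and 10.2 CPM at day 7 and 0.65, 3.25, 2.17 and 2.54 at day 14 (log2FC -1.59 ± 0.41, adjusted p = 0.0315), with the call lost without day 7 replicates 1, 3 or 4 or day 14 replicate 3 (adjusted p up to 0.0977). The interstitial macrophage list, which holds the C1q genes, Cd163 and Folr2, had no call, a median of 0.46 and 9 of 10 positive members. C1qa, its most abundant member, was at 279.8, 174, 164 and 170.5 CPM at day 7 and 514, 245, 185 and 234 at day 14 (log2FC 0.58 ± 0.28, adjusted p = 0.207), with day 14 replicate 1 standing apart. With that library alone 6 of the 9 fitted were called higher (median 1.43), and with replicates 2 to 4 none was (median 0.11). The difference between the sets of day 14 libraries was not tested.

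Matrix genes rose in part, with few calls among the fibrillar collagens and both rises and falls in most other matrix lists. The list of fibrillar collagens, which form the tensile fibres of a scar, had 10 tested members, a median of 0.63 and a single call. Col11a1 (ENSMUSG00000027966, chr3:114030540-114220718), a minor fibrillar collagen, was at 0.85, 1, 0.275 and 0.238 CPM at day 7 and 48.6, 10.5, 2.98 and 1.81 at day 14. Replicate 1 of day 14 was far above the others, yet all 4 exceeded day 7 (log2FC 4.73 ± 0.98, adjusted p = 0.0147). It was called with the covariate (5.42), and without day 14 replicate 1 the change was 3.08. Col1a1, the main collagen of scars, was named after its values were seen and was at 1496, 1285, 1254 and 1712 CPM at day 7 and 5084, 1495, 1558 and 991 at day 14. The day 14 libraries other than replicate 1 overlapped day 7, and the gene was not called (log2FC 0.67 ± 0.42, adjusted p = 0.337). Replicate 1 alone gave 6 calls among the 8 collagens fitted and a median of 1.58, and replicates 2 to 4 gave 2 calls and a median of 0.13. The summed level of the list was 4862 to 6154 CPM at day 7, 14917 CPM in day 14 replicate 1 and 3798 to 5387 CPM in the other day 14 libraries. At day 0 it was 1047 to 1592 CPM.

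Elastic fibre genes moved in both directions, and each of the 4 calls among 16 tested members was held and was called with the covariate. Eln (ENSMUSG00000029675, chr5:134702593-134747323), the elastin monomer, was at 1975, 1818, 1202 and 1665 CPM at day 7 and 7286, 4382, 3811 and 2631 at day 14 (log2FC 1.44 ± 0.27, adjusted p = 0.01). Ltbp2, a microfibril-binding protein, was at 290, 226, 230.5 and 225 CPM at day 7 and 830.4, 500.5, 551 and 451 at day 14 (log2FC 1.26 ± 0.18, adjusted p = 0.00291). For both genes the lowest day 14 library exceeded the highest of day 7, and replicate 1 was the top value. Fbln1, a fibulin of elastic fibres and basement membranes, fell from 136, 82.8, 149 and 167 CPM to 36.6, 31.9, 64 and 54.1 CPM (log2FC -1.52 ± 0.24, adjusted p = 0.00486). Ltbp4, which helps to assemble elastic fibres, fell from 572, 622, 813 and 689 CPM to 384, 356, 494 and 431 CPM (log2FC -0.70 ± 0.13, adjusted p = 0.00908). Neither overlapped between the days. With the covariate the changes were 1.74 for Eln, 1.44 for Ltbp2, -1.50 for Fbln1 and -0.72 for Ltbp4. For the whole list the fit of replicate 1 gave 5 higher and 3 lower among 15 and that of replicates 2 to 4 gave 3 and 3.

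The list of fibronectin, tenascins and matricellular proteins had 23 tested members, of which 5 rose and 1 fell (median 0.63, 19 positive). In day 14 replicate 1 alone 13 of the 21 fitted were called higher and 1 lower (median 1.15), and in replicates 2 to 4 there were 4 higher and 3 lower (median 0.31). Sparc, a collagen-binding matricellular protein, was at 3087, 2879, 2998 and 2817 CPM at day 7 and 6199.8, 5707, 4390.2 and 4072 at day 14, with no overlap (log2FC 0.79 ± 0.15, adjusted p = 0.0101), was held and was called with the covariate (0.91). Thbs2, a thrombospondin that binds cells and proteases, was at 13.2, 4.86, 9.45 and 7.97 CPM at day 7 and 75.7, 37.5, 23.6 and 11.8 at day 14 (log2FC 2.07 ± 0.47, adjusted p = 0.0203). Day 14 replicate 4 fell among the day 7 libraries, and the call was lost without day 7 replicates 3 or 4 or day 14 replicate 2 (adjusted p up to 0.0616) and kept with the covariate (2.36). Ccn2, the connective tissue growth factor, was at 240.4, 313, 234 and 165 CPM at day 7 and 769, 925, 434 and 383 at day 14 (log2FC 1.40 ± 0.34, adjusted p = 0.0263), and its call was lost without day 7 replicates 1, 3 or 4 or day 14 replicate 2 (adjusted p up to 0.0828). Fap, a serine protease of activated fibroblasts, was the fifth (1.02), called without day 14 replicate 4 and lost without any other library (adjusted p up to 0.115). Tnxb, a tenascin of loose connective tissue, was at 70.7, 71.5, 112 and 78.6 CPM at day 7 and 24.2, 18.3, 46.2 and 52.3 at day 14 (log2FC -1.24 ± 0.29, adjusted p = 0.0219), lost without day 7 replicates 3 or 4 or day 14 replicate 2 (adjusted p up to 0.0647) and kept with the covariate (-1.64). Fn1, fibronectin itself, was named after its values were seen and was not called (log2FC 0.90 ± 0.34, adjusted p = 0.111), with 8539.9, 2514, 2877 and 2639 CPM at day 14 against 2246, 2484, 1833 and 2297 CPM at day 7.

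Enzymes that process and crosslink collagen gave 2 rises and 1 fall among 25 (median 0.13). The fit of replicate 1 called 10 higher and 1 lower (median 0.47), and that of replicates 2 to 4 called 1 higher and none lower (median 0.026). Bmp1, the protease that removes the C-terminal propeptide of procollagen, was at 91, 83.3, 91.9 and 86.2 CPM at day 7 and 204, 173, 139.9 and 127 at day 14 (log2FC 0.87 ± 0.18, adjusted p = 0.0147), held and without overlap, and at 0.74 with the covariate (adjusted p = 0.0971). Loxl3, a lysyl oxidase, was at 16.5, 17.8, 14.5 and 15.6 CPM at day 7 and 52.6, 30.8, 26.9 and 17.5 at day 14 (log2FC 0.99 ± 0.25, adjusted p = 0.0298). Pcolce2, which enhances that cleavage, was at 119.9, 92.4, 182 and 139 CPM at day 7 and 39.2, 38.7, 93.5 and 78.4 at day 14 (log2FC -1.09 ± 0.29, adjusted p = 0.0363). Each had 1 day 14 library within the day 7 range, Loxl3 being lost without day 7 replicates 1, 3 or 4 or day 14 replicates 1 or 2 (adjusted p up to 0.079) and Pcolce2 without day 7 replicates 1, 3 or 4 or day 14 replicates 1 or 2 (up to 0.107).

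Small proteoglycans and hyaluronan genes gave 2 rises and 2 falls among 20 tested. Fmod, fibromodulin, which sets the diameter of collagen fibrils, was at 20.6, 14.7, 25.7 and 13.6 CPM at day 7 and 99.5, 37.2, 52.1 and 35 at day 14 (log2FC 1.58 ± 0.30, adjusted p = 0.0101). Hapln1, which links hyaluronan to proteoglycans, was at 1.42, 1.28, 1.04 and 0.595 CPM at day 7 and 2.9, 6, 5.21 and 4.47 at day 14 (log2FC 2.09 ± 0.32, adjusted p = 0.00391). Both rises were held, lay clear of day 7 and were called with the covariate. Dcn, decorin, which binds collagen and TGF-beta, fell from 234, 224, 173 and 219.7 CPM to 155, 124, 99.2 and 112 CPM (log2FC -0.80 ± 0.19, adjusted p = 0.0233). Ogn, osteoglycin, fell from 182, 180, 243 and 267 CPM to 92.3, 59.5, 136 and 144 CPM (log2FC -1.01 ± 0.23, adjusted p = 0.0216). The Dcn call was lost without day 7 replicates 1 or 4 or day 14 replicates 2 or 3 (adjusted p up to 0.0646) and that of Ogn without day 7 replicates 3 or 4 (up to 0.0666).

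Basement membrane genes gave 3 rises and no fall among 23 tested (median 0.24), with 8 higher in replicate 1 alone (median 0.56) and 3 in replicates 2 to 4 (median 0.21). Lama1, a laminin chain of embryonic basement membranes, was at 14.1, 5.86, 13.6 and 15 CPM at day 7 and 22.1, 31.2, 41.5 and 48.6 at day 14, all above day 7 (log2FC 1.56 ± 0.32, adjusted p = 0.0136). It was held, and ended with the covariate (1.65, adjusted p = 0.087). Lama5, the main laminin alpha chain of adult lung epithelium, was at 208, 259, 216 and 242 CPM at day 7 and 360.3, 342, 364 and 355 at day 14 (log2FC 0.62 ± 0.13, adjusted p = 0.0144), lost without day 7 replicate 1, where the change was under 1.5-fold (adjusted p = 0.0459). Col4a4, a chain of the type IV collagen network, was at 219, 182, 231 and 211 CPM at day 7 and 332, 332, 352 and 381 at day 14 (log2FC 0.73 ± 0.20, adjusted p = 0.0392), called without day 14 replicate 1 and lost without any other library (adjusted p up to 0.0925). The list of other collagens had 2 rises and 3 falls among 20 tested, against 5 and 1 among the 14 fitted in replicate 1 alone and 1 and 4 in replicates 2 to 4. Among its members, Col7a1, which anchors the epidermal and airway basement membrane, was at 21.6, 17.4, 19.2 and 28.7 CPM at day 7 and 104, 68.8, 39.6 and 36.7 at day 14 (log2FC 1.52 ± 0.38, adjusted p = 0.0272). Col10a1 was at 0.17, 0, 0.22 and 0.0595 CPM at day 7 and 1, 0.957, 0.458 and 0.483 at day 14. Col13a1, a transmembrane collagen, was at 77.9, 78.5, 84.1 and 104 CPM at day 7 and 34.6, 24.8, 59.4 and 52.3 at day 14 (log2FC -1.01 ± 0.26, adjusted p = 0.0297), and Col17a1 and Col6a5, also lower, stayed under 4 CPM. Each of these 5 calls was lost without day 7 replicate 1, day 7 replicate 4 or day 14 replicate 2, among others, with adjusted p up to 0.0708, 0.0869, 0.0842, 0.115 and 0.119 for Col7a1, Col10a1, Col13a1, Col17a1 and Col6a5.

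Matrix metalloproteinases and their inhibitors gave 2 rises and 1 fall among 21 tested, against 5 and 1 among the 19 fitted in replicate 1 alone and 1 and 1 in replicates 2 to 4. Beside Mmp12, Mmp13, an interstitial collagenase, was at 5.95, 6.08, 3.62 and 2.32 CPM at day 7 and 15.7, 10.3, 9.73 and 14.4 at day 14 (log2FC 1.48 ± 0.36, adjusted p = 0.0254), called with the covariate (1.96) and lost without day 7 replicates 3 or 4 (adjusted p up to 0.0715). Mmp15, a membrane-bound metalloproteinase, was at 154, 106, 192 and 168 CPM at day 7 and 40.8, 45.6, 98.9 and 113 at day 14 (log2FC -1.05 ± 0.28, adjusted p = 0.0364), with day 14 replicate 4 above the lowest day 7 library and a call lost without day 7 replicates 1, 3 or 4 or day 14 replicates 1 or 2 (adjusted p up to 0.105).

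The regulators of the matrix programme showed few calls. Of 25 genes of TGF-beta signalling, the pathway that activates fibroblasts, none rose and 2 fell (median 0.0037), where replicate 1 alone gave 3 higher and none lower and replicates 2 to 4 gave 2 lower. Lrrc32, which holds latent TGF-beta on the cell surface, was at 75.9, 136, 78.4 and 74.4 CPM at day 7 and 63, 54.1, 57.8 and 56.6 at day 14 (log2FC -0.65 ± 0.17, adjusted p = 0.0297). Tgfbr3, the co-receptor betaglycan, was at 81.3, 102, 90.1 and 106 CPM at day 7 and 84.8, 45.9, 53.7 and 50.6 at day 14 (log2FC -0.69 ± 0.18, adjusted p = 0.036). The first was lost without day 7 replicate 2 or day 14 replicates 2, 3 or 4 (adjusted p up to 0.0837) and the second without any library except day 14 replicate 1 (up to 0.112). None of 15 contractile genes of smooth muscle and myofibroblasts and none of 18 fibrogenic transcription factors was called by edgeR. Tpm1, a tropomyosin and the most abundant of the former, had a log2 fold change of 0.24 (adjusted p = 0.236), and Tead1, the partner of YAP and most abundant of the latter, of 0.08 (0.812). Replicate 1 alone gave 5 calls among the 13 contractile genes fitted and 3 among 17 transcription factors, all higher, where replicates 2 to 4 gave none. Dnm3os, a long RNA that carries the miR-199a and miR-214 precursors on the strand opposite the Dnm3 gene, was among the largest held rises, stood at 4.7, 8.15, 4.83 and 9.63 CPM at day 7 and 37.2, 27.4, 34.7 and 17.5 at day 14 (log2FC 2.1 ± 0.31, adjusted p = 0.00368), and was called with the covariate (2.13). Since the strand setting of the counting is not stated, reads of Dnm3os and of Dnm3 cannot be told apart here.

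**Figure D3:**
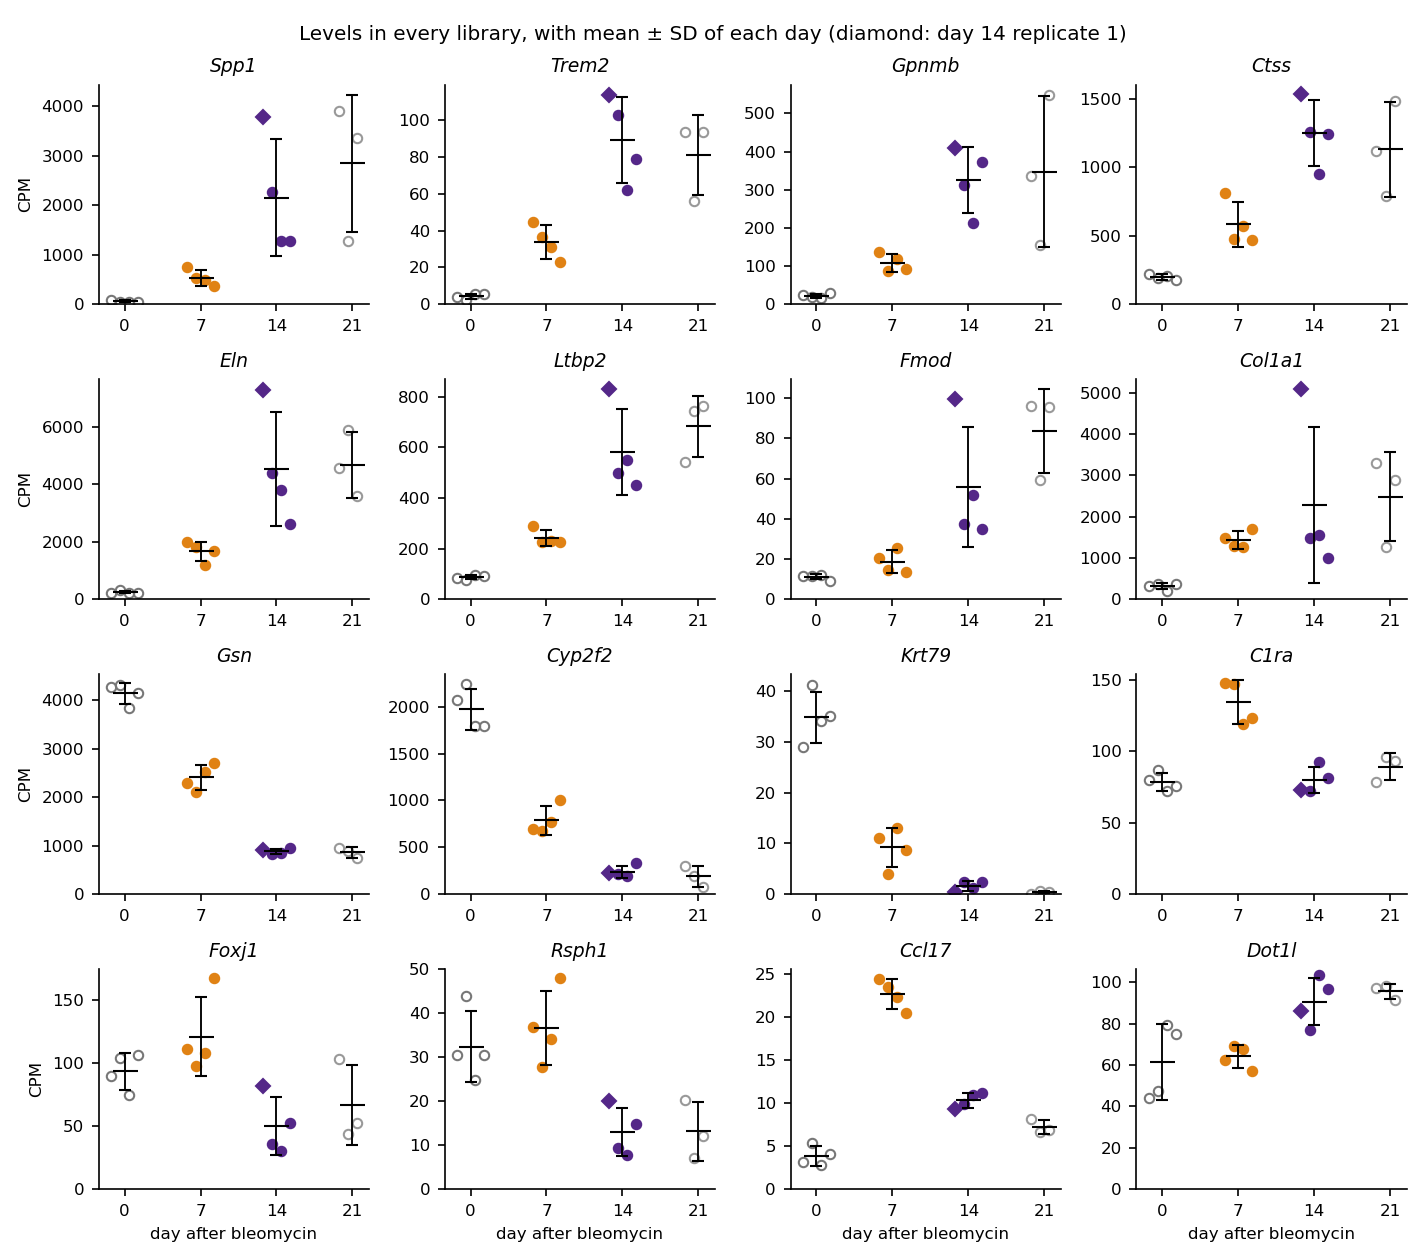
Levels of 16 genes in every library (CPM on the y axis) by day after bleomycin, with black marks for the mean and bars for ± SD, filled points for days 7 and 14 and a diamond for day 14 replicate 1. Gsn is tight at both days, between 2115 and 2701 CPM at day 7 and between 826 and 943 CPM at day 14, whereas Col1a1 at day 14 runs from 990.8 to 5084 CPM.

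Several markers of resting fibroblasts fell. The adventitial fibroblast list had 5 falls among 9 tested and no rise (median -0.80), with 2 of them called under the covariate, and the alveolar fibroblast list 3 falls among 9 and no rise (median -0.81). Gsn (ENSMUSG00000026879, chr2:35256380-35307892), the actin-severing protein gelsolin, was at 2299.9, 2115, 2524 and 2701 CPM at day 7 and 911, 826, 852 and 943 at day 14. Both groups were tight and far apart (log2FC -1.45 ± 0.13, adjusted p = 0.000141), and the fall was held and was called with the covariate (-1.44), at -1.38 for replicate 1 alone and -1.46 for replicates 2 to 4. Ccl11, eotaxin, was at 5.95, 9.1, 3.73 and 5.59 CPM at day 7 and 1.24, 0.957, 0.744 and 1.63 at day 14 (log2FC -2.41 ± 0.35, adjusted p = 0.00378), also held and called with the covariate. Pi16, a secreted peptidase inhibitor that marks adventitial fibroblasts, was at 30.4, 39.6, 40 and 46.4 CPM at day 7 and 19.8, 12.8, 16.2 and 14.6 at day 14 (log2FC -1.30 ± 0.27, adjusted p = 0.0147), lost without day 14 replicate 2 alone (adjusted p = 0.0503). Dcn was the fourth, and Clec3b, which encodes tetranectin, was the fifth (-0.98, adjusted p = 0.0301), lost without day 7 replicates 1, 3 or 4 or day 14 replicates 1 or 3 (adjusted p up to 0.0814).

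Ces1d, a carboxylesterase that marks alveolar fibroblasts, was at 471, 424, 522 and 516 CPM at day 7 and 175, 200.3, 260.3 and 305 at day 14, with no overlap (log2FC -1.04 ± 0.16, adjusted p = 0.0042). The fall was held and was called with the covariate (-1.32). Inmt, a methyltransferase marking the same cells, was at 554, 463, 851 and 607 CPM at day 7 and 104, 162, 302 and 279.6 at day 14 (log2FC -1.54 ± 0.34, adjusted p = 0.0175). Wnt2, a ligand they supply to the epithelium, was at 11.3, 11.3, 12 and 13.1 CPM at day 7 and 5.43, 6.19, 9.1 and 6.94 at day 14 (log2FC -0.79 ± 0.19, adjusted p = 0.024). Inmt was lost without day 7 replicate 3 or day 14 replicate 2 (adjusted p up to 0.0599) and Wnt2 without day 7 replicates 3 or 4 or day 14 replicate 2 (up to 0.0711), and both were called with the covariate. Lrat, the enzyme by which stellate-like fibroblasts store retinol as esters, was among the largest held falls, at 38, 58, 82 and 41.6 CPM at day 7 and 7.62, 5.93, 14.8 and 25.8 at day 14 (log2FC -2.02 ± 0.42, adjusted p = 0.0148). In the pericyte list, 1 of 10 fell, Abcc9, a subunit of the mural cell potassium channel, at 15.3, 13.1, 16.9 and 19.7 CPM at day 7 and 10.1, 5.93, 5.72 and 8.69 at day 14 (log2FC -1.09 ± 0.23, adjusted p = 0.0155), lost without day 7 replicate 4 or day 14 replicate 2 (adjusted p up to 0.0521). None of 7 mesothelial genes was called by edgeR with all libraries, and Msln, mesothelin, had a log2 fold change of 1.32 (adjusted p = 0.0544). DESeq2 called 1 of the 7 higher, and the edgeR fit of replicates 2 to 4 called Msln (1.45, adjusted p = 0.0433).

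Airway epithelial genes that were called fell. Among 9 genes of club and mucous secretory cells, all negative with a median of -2.34, 2 were called. Cyp2f2 (ENSMUSG00000052974, chr7:27119909-27133660), the P450 enzyme of club cells, was at 694, 678, 770.3 and 1004 CPM at day 7 and 225, 211, 189 and 329 at day 14, against a day 0 mean of 1972 ± 219.7 CPM. The groups lay clear of each other and the fall was held (log2FC -1.72 ± 0.30, adjusted p = 0.00713) and was called with the covariate (-1.86), at -1.78 for replicate 1 and -1.69 for replicates 2 to 4. Scgb3a2, a secretoglobin of distal airway cells, was at 479, 636, 546 and 777 CPM at day 7 and 261, 181, 92.5 and 227 at day 14 (log2FC -1.68 ± 0.45, adjusted p = 0.0363), and its call was lost without any library except day 14 replicate 1 (adjusted p up to 0.0947). Scgb1a1, the club cell secretory protein, was named after its values were seen and was not called (log2FC -0.88 ± 0.33, adjusted p = 0.112), at 9735, 8844, 8066 and 10297 CPM at day 7 and 5107, 6800.3, 2686 and 5537 at day 14.

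Genes of multiciliated cells, whose beating cilia clear the airway, gave more calls, with 8 of 10 called lower, none higher and a median of -1.28. With the covariate none of the 10 was called (median -1.10), with replicate 1 alone 1 was (median -0.62) and with replicates 2 to 4 there were 9 (median -1.67). None of the 8 was held, since none was called without day 7 replicate 4 or without day 14 replicate 2, and 2 were without day 14 replicate 3. Foxj1, the master transcription factor of motile cilia, was at 112, 97.5, 108 and 168 CPM at day 7 and 82.1, 36, 30.4 and 52.3 at day 14 (log2FC -1.27 ± 0.30, adjusted p = 0.0245). Rsph1, a radial spoke protein, was at 36.8, 27.9, 34.2 and 48 CPM at day 7 and 20, 9.31, 7.84 and 14.7 at day 14 (log2FC -1.50 ± 0.32, adjusted p = 0.016). Tppp3, a tubulin-binding protein, was at 187, 140.3, 209.5 and 231 CPM at day 7 and 88.6, 70.2, 59.8 and 100.3 at day 14 (log2FC -1.27 ± 0.27, adjusted p = 0.016). Dynlrb2, a dynein light chain, was at 31, 21.8, 29.2 and 34.1 CPM at day 7 and 17.4, 12.8, 8.58 and 13.9 at day 14 (log2FC -1.14 ± 0.26, adjusted p = 0.02). In all 4 genes each day 14 library was below each day 7 library, day 7 replicate 4 was the highest, and the calls were lost without day 7 replicate 4 or day 14 replicate 2, those of Foxj1 and Dynlrb2 also without day 14 replicate 3 (adjusted p up to 0.0769 for Foxj1 and 0.0556 for Rsph1). The summed level of the list was 418 to 699 CPM at day 7 and 316 CPM in day 14 replicate 1, and 150 to 256 CPM in the other day 14 libraries.

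The fall extended to the axoneme, the microtubule core of the cilium, in families chosen after the largest falls were seen. Among 30 tested genes named Cfap, which code for cilia and flagella associated proteins, 14 fell (46.7%). Among 20 axonemal dynein genes, the motors, 9 fell (45%), and among 15 genes of radial spokes, tektins and the dynein regulatory complex 7 fell (46.7%). None of these genes rose, against 2.77% of all genes higher and 3.23% lower. Of 14 intraflagellar transport genes, which build both motile and primary cilia, 1 fell, Ift81 (-0.66). Of the 14, 9 and 7 falls, 3, 1 and 1 were held, and the other calls were each lost without at least 1 library. Among the members held, Cfap57 was at 10.7, 8.65, 12.3 and 18.7 CPM at day 7 and 4.31, 2.68, 2.86 and 3.44 at day 14 (log2FC -1.92 ± 0.35, adjusted p = 0.00804). Cfap58 was at 11, 10.6, 9.28 and 13.8 CPM at day 7 and 5.67, 1.66, 2.23 and 3.14 at day 14 (log2FC -1.81 ± 0.36, adjusted p = 0.0126). Dnali1, an inner arm dynein light chain, was at 23.6, 15.1, 20.6 and 33.2 CPM at day 7 and 8.45, 3.89, 4.41 and 10.5 at day 14 (log2FC -1.76 ± 0.33, adjusted p = 0.0101). Outside these families, and also among the largest held falls, Iqca, an IQ motif protein of the cilium, was at 12.1, 10.4, 9.5 and 17.9 CPM at day 7 and 5.26, 2.42, 2.58 and 3.74 at day 14 (log2FC -1.83 ± 0.32, adjusted p = 0.00725). Ccdc81, a coiled-coil protein, was at 8.89, 7.87, 10.1 and 11.7 CPM at day 7 and 4.02, 1.59, 1.66 and 3.02 at day 14 (log2FC -1.90 ± 0.32, adjusted p = 0.00604). Day 14 replicate 1 was the highest or second highest of the day 14 libraries in each of these 5 genes, and none of the 4 day 14 values reached the lowest of day 7. With the covariate none of the 3 axoneme families kept a call, and replicate 1 alone called none of their genes, while replicates 2 to 4 called 18, 13 and 8. The family medians were -0.50, -0.52 and -0.39 in replicate 1 and -1.18, -1.24 and -1.40 in replicates 2 to 4.

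Motile cilium genes are known targets of the RFX factors, whose full X-box reads GTTNCC, any 2 bases, then GGNAAC, and whose core hexamer reads GTTGCC, or GGCAAC on the other strand. Both were searched on either strand, and the hexamer can lie inside the full box. In the RefSeq promoters of build GRCm38.p6, 250 bases before to 50 after each start, the hexamer was present in 12.5% of 32851 promoters and in 36.1% of the 61 promoters of the 54 genes that matched, of 66 tested in these families with Foxj1 added. Among the 28 promoters of 27 matched genes that fell it was present in 39.3%. The full box was in 0.451% of all promoters and in 1 of those that fell. Windows of 60 bases are shown for genes that fell, on the strand of the gene with hexamers in capitals, to show how the letters sit near the start. A match is a description of letters and not of binding.
Drc1, chr5:30281333-30281392, plus strand: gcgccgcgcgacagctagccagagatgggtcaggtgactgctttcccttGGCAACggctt
Cfap58, chr19:47937626-47937685, plus strand: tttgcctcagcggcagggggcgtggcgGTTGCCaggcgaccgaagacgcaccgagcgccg
Cfap161, chr7:83794846-83794905, minus strand: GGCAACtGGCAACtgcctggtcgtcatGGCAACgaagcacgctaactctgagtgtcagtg
Tekt1, chr11:72361883-72361942, minus strand: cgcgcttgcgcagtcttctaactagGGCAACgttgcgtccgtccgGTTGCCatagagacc
Drc1, of the dynein regulatory complex, fell with a log2 fold change of -1.61 (adjusted p = 0.0121), and Cfap161 with -1.46 (0.0173). Tekt1, a tektin, fell with -1.29 (0.0282).

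**Figure D4:**
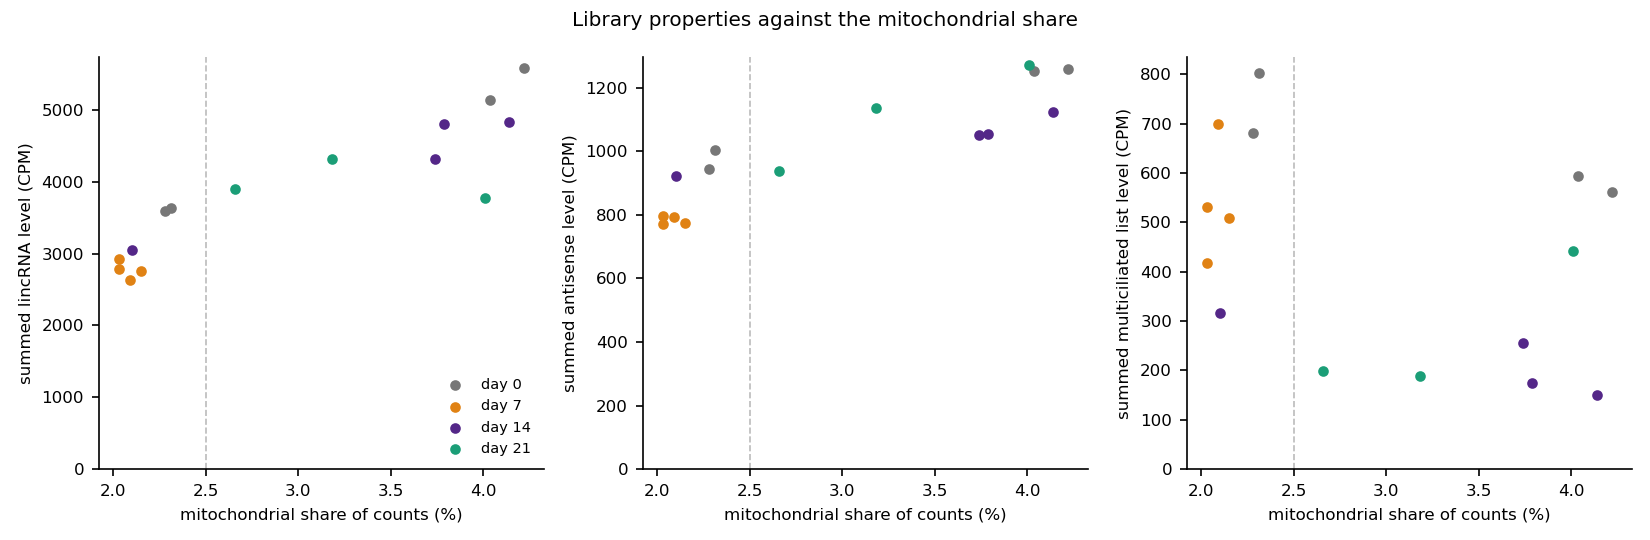
Each point is 1 of the 15 libraries, with its mitochondrial share of counts (%) on the x axis and on the y axes the summed level (CPM) of lincRNA genes, of antisense genes and of the multiciliated list. The day 7 libraries sit at 2.03% to 2.15%, day 14 replicate 1 beside them at 2.1%, and the other day 14 libraries at 3.74% to 4.14%, with higher lincRNA and lower multiciliated sums, and the dashed line marks 2.5%.

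Few alveolar epithelial genes were called. None of 10 alveolar type 1 genes was called (median 0.15), and Ager, the receptor for advanced glycation end products that marks these flat cells, had a log2 fold change of 0.12 (adjusted p = 0.798). The 10 genes of alveolar type 2 cells, which make surfactant, were all negative (median -0.64), and 1 was called, Etv5, a transcription factor that maintains them, at 184, 171, 210 and 141 CPM at day 7 and 53, 83.6, 102 and 140.1 at day 14 (log2FC -0.90 ± 0.25, adjusted p = 0.0446). That call was lost without any library except day 14 replicate 4 (adjusted p up to 0.121). The list sum was 20199 to 28764 CPM at day 7, 8054 CPM in day 14 replicate 1 and 18593 to 22901 CPM in the other day 14 libraries. Replicate 1 alone called all 10 lower (median -1.48) and replicates 2 to 4 called none (median -0.46), a contrast between libraries that was not tested. Sftpc, the surfactant protein C gene, was named after its values were seen and was at 15543, 8189.6, 16309 and 15708 CPM at day 7 and 3742, 11818, 10534 and 13027 at day 14 (log2FC -0.51 ± 0.35, adjusted p = 0.388). None of the 10 genes of the Krt8 transitional epithelium, the intermediate state between type 2 and type 1 cells, was called by edgeR (median 0.09). DESeq2 and replicates 2 to 4 each called 1 lower and replicate 1 alone called 1 higher. Krt7, its most abundant member, had a log2 fold change of 0.07 (adjusted p = 0.857). Of 5 tested basal cell genes none was called, and Krt14 stood above the other day 14 libraries in replicate 2 at 8.48 CPM.

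Most endothelial lists had no call. General capillary, arterial and venous lists gave 0 calls among 10, 8 and 8 tested genes, with medians of -0.13, 0.18 and 0.07. Ptprb, Sema3g and Vwf, their most abundant members, had log2 fold changes of -0.02, 0.12 and 0.09 (adjusted p = 0.962, 0.748 and 0.767). Of 10 genes of aerocytes, the large capillary cells of gas exchange, 2 fell and were held (median -0.38). Cyp4b1, a P450 enzyme that other lung cells also express, was at 319, 431, 423 and 474 CPM at day 7 and 172, 149, 175 and 228 at day 14 (log2FC -1.19 ± 0.21, adjusted p = 0.0071). Ednrb, the endothelin receptor B, was at 47.6, 54, 61 and 58.1 CPM at day 7 and 39.3, 25.4, 29.1 and 26.5 at day 14 (log2FC -0.88 ± 0.17, adjusted p = 0.0103). Neither overlapped, and neither was called with the covariate (0.075 and 0.0848). Among 8 lymphatic genes 2 rose. Prox1, the transcription factor that fixes lymphatic identity, was at 6.17, 5.53, 5.22 and 5.11 CPM at day 7 and 11.4, 9.95, 10.7 and 13.5 at day 14, with each group in a narrow range (log2FC 1.05 ± 0.17, adjusted p = 0.00486). The rise was held and was called with the covariate (1.04), at 1.07 in replicate 1 and 1.05 in replicates 2 to 4. Ccl21a, the chemokine by which lymphatics attract dendritic cells, was at 79.8, 45.4, 75.2 and 58.6 CPM at day 7 and 73, 159.5, 109.7 and 133 at day 14 (log2FC 0.88 ± 0.20, adjusted p = 0.0222), lost without day 7 replicates 2 or 4 or day 14 replicate 2 (adjusted p up to 0.0699). Near-identical Ccl21 genes exist in the mouse genome, so its counts are uncertain.

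Dot1l, the histone H3K79 methyltransferase on which the study centres, was at 62.5, 69.4, 67.9 and 57.4 CPM at day 7 and 86, 77.2, 103 and 96.7 at day 14. All 4 day 14 libraries lay above day 7, and the gene was not called (log2FC 0.50 ± 0.17, adjusted p = 0.0796). With the covariate the change was 0.17 (adjusted p = 0.658).

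Inflammatory gene lists gave few calls, most of them falls. Of 18 chemokines of the CC class 1 rose, Ccl21a, and 3 fell (median 0.16). Ccl17, a ligand of CCR4 made by dendritic cells and macrophages, was at 24.4, 23.4, 22.3 and 20.4 CPM at day 7 and 9.28, 9.89, 10.9 and 11.2 at day 14, and its 2 groups were narrow and far apart (log2FC -1.14 ± 0.17, adjusted p = 0.00391). With Ccl11 it was held and was called with the covariate (-1.13). Ccl22, the other CCR4 ligand, was at 42.4, 22.6, 39.8 and 26.3 CPM at day 7 and 13.7, 10.5, 16.1 and 13.7 at day 14 (log2FC -1.28 ± 0.30, adjusted p = 0.0222), lost without day 7 replicates 1 or 3 or day 14 replicate 2 (adjusted p up to 0.0693). No call was made by edgeR among 15 chemokines of other classes, 17 inflammatory cytokines, 26 interferon-stimulated genes or 11 MHC class I genes, whose medians were -0.30, 0.47, -0.17 and -0.27. In replicate 1 alone 6 interferon-stimulated genes were called lower (median -0.65), against none in replicates 2 to 4 (median -0.015). Il33, the epithelial alarmin, was at 338, 299.6, 244 and 256 CPM at day 7 and 28.1, 89.2, 169.9 and 215 at day 14 (log2FC -1.18 ± 0.45, adjusted p = 0.12), with day 14 replicate 1 the lowest. Cxcl15, Bst2 and H2-D1, the most abundant of the other lists, had log2 fold changes of -0.64, -0.19 and -0.27 (adjusted p = 0.157, 0.571 and 0.252). In the MHC class II list Ctss was the 1 call among 11, and the other 10 members were negative and not called (list median -0.45).

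Complement gave 6 falls and no rise among 18 tested, 4 of them held. With the covariate 1 was called higher and 1 lower, with replicate 1 alone 5 and 4, and with replicates 2 to 4 none and 6. C1ra and C1s1 encode the proteases of the first component. C1ra was at 148, 147, 119 and 124 CPM at day 7 and 73, 72.5, 92.6 and 81.5 at day 14 (log2FC -0.75 ± 0.11, adjusted p = 0.00391). C1s1 was at 138, 146, 124 and 123 CPM at day 7 and 73.8, 81.3, 93.9 and 83.7 at day 14 (log2FC -0.67 ± 0.12, adjusted p = 0.00885). C7, a subunit of the membrane attack complex, was at 356, 609, 401 and 643 CPM at day 7 and 131, 56.7, 212 and 208 at day 14 (log2FC -1.73 ± 0.34, adjusted p = 0.0126). The day 14 libraries were below day 7 for each of these 3 genes. C1ra was called with the covariate (-0.71, adjusted p = 0.0349), and C1s1 and C7 were not (0.0934 and 0.126). Serping1 (-0.62) and C6 (-0.81) fell without being held, Serping1 being lost without day 14 replicate 2, where it changed under 1.5-fold, and C6 without day 7 replicates 1, 3 or 4 or day 14 replicates 2 or 3 (adjusted p up to 0.0394 and 0.102).

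Lymphoid and granulocyte lists gave few calls at these levels. The lists of T cells, B cells, and cytotoxic lymphocytes and NK cells had medians of -0.86, -0.82 and -0.90, with 10 of 12, 10 of 10 and 10 of 10 members negative. Their 1 call was Gzmb, the granule protease granzyme B, at 4.02, 3.29, 3.85 and 4.34 CPM at day 7 and 0.945, 1.28, 2.23 and 2.23 at day 14 (log2FC -1.21 ± 0.34, adjusted p = 0.0424), lost without any library except day 14 replicate 4 (adjusted p up to 0.116). Cd4 and Ighd, the most abundant of the T and B cell lists, had log2 fold changes of -0.72 and -0.73 (adjusted p = 0.154 and 0.282). Vpreb3, a protein of developing B cells, was among the largest held falls, stood at 10.9, 7.42, 11.2 and 13.2 CPM at day 7 and 3.13, 2.1, 2.75 and 2.96 at day 14 (log2FC -1.96 ± 0.32, adjusted p = 0.005), and was called with the covariate. Of 10 dendritic cell genes 2 fell, Flt3, the growth factor receptor of the lineage, at 14.7, 8.54, 16.9 and 12.7 CPM at day 7 and 6.26, 3.38, 7.95 and 8.03 at day 14 (log2FC -1.04 ± 0.29, adjusted p = 0.0424). Itgae, integrin CD103, was at 22.2, 9.88, 20.9 and 24.7 CPM at day 7 and 6.97, 4.78, 10.2 and 12.3 at day 14 (log2FC -1.18 ± 0.33, adjusted p = 0.0438). Each was kept without day 7 replicate 2 or day 14 replicate 4 and lost without any other library (adjusted p up to 0.119 and 0.121). No gene was called among 10 neutrophil, 9 monocyte, 4 mast cell, basophil and eosinophil, or 7 erythroid genes. Their most abundant members, Lcn2, Ace, Gata2 and Hbb-bs, had log2 fold changes of -0.28, -0.11, -0.10 and 0.42 (adjusted p = 0.529, 0.654, 0.809 and 0.517). Of 12 plasma cell genes 1 was called, the immunoglobulin constant region Ighg2c, at 851, 4.69, 28.9 and 8.44 CPM at day 7 and 5.67, 0.0638, 3.55 and 0.785 at day 14. The call rested on day 7 replicate 1 and was lost without day 7 replicate 1 or day 14 replicates 2, 3 or 4 (adjusted p up to 0.216).

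Some detoxifying enzymes fell, in families chosen after single values were seen. Of 34 cytochrome P450 genes 7 fell (20.6%), of 9 carboxylesterases 4, of 18 aldehyde dehydrogenases 4 (22.2%) and of 20 glutathione S-transferases 4, and none of these genes rose, where 3.23% of all genes fell. The count holds Cyp2f2, Cyp4b1 and Ces1d, which are described above with the lists of club cells, aerocytes and alveolar fibroblasts. It also holds Cyp2e1, named after its values were seen, which was at 4.13, 1.73, 6.54 and 18.1 CPM at day 7 and 0.177, 0.128, 0.114 and 0.724 at day 14 and so was highest in day 7 replicate 4, as were genes of fat described below, and which was held and called with the covariate. Of the falls in the P450, carboxylesterase, aldehyde dehydrogenase and glutathione S-transferase families, 3, 3, 2 and 2 were held. With the covariate 2 genes of each family were called lower and 1 P450 gene higher. Aldh1a1, a retinal dehydrogenase, fell from 1039.9, 784, 1165 and 1234 CPM to 590.2, 392, 431 and 475 CPM (log2FC -1.16 ± 0.18, adjusted p = 0.00392). Aldh1a7, its close copy, fell from 120.4, 118, 120.2 and 142 CPM to 43.4, 37.3, 39.8 and 62.5 CPM (log2FC -1.45 ± 0.17, adjusted p = 0.00104). Both were held and were called with the covariate. Pon1, the esterase paraoxonase, was at 32.7, 43.8, 34.2 and 40.4 CPM at day 7 and 9.63, 7.27, 5.95 and 13.3 at day 14 (log2FC -2.06 ± 0.43, adjusted p = 0.0146), also held. The NRF2 list, of genes that the antioxidant factor NRF2 induces, was divided, with 3 rises and 3 falls among 18 tested. Beside Hmox1, Slc7a11, the cystine importer that feeds glutathione synthesis, was at 10.2, 12.6, 10.9 and 11.2 CPM at day 7 and 23.4, 35.9, 25.7 and 20.9 at day 14, all above day 7 (log2FC 1.24 ± 0.22, adjusted p = 0.00725) and called with the covariate. Ftl1, the ferritin light chain, was at 81.7, 74.7, 80.1 and 93.3 CPM at day 7 and 117, 209, 114 and 111 at day 14 (log2FC 0.74 ± 0.19, adjusted p = 0.0301). Ferritin light chain has many processed copies, and its call was lost without day 7 replicates 1, 2, 3 or 4 or day 14 replicate 2 (adjusted p up to 0.0727). Gstm1 was at 250.4, 195, 274 and 278 CPM at day 7 and 140.3, 157, 156 and 149.8 at day 14 (log2FC -0.73 ± 0.13, adjusted p = 0.00833). Gsta3 was at 95.7, 144, 132 and 121 CPM at day 7 and 52.8, 63.5, 53.1 and 63.4 at day 14 (log2FC -1.08 ± 0.21, adjusted p = 0.011), both held, without overlap and called with the covariate. Gsta2, at 2.1, 2.34, 3.19 and 1.43 CPM at day 7 and 0.886, 0.446, 0.801 and 1.27 at day 14 (log2FC -1.40 ± 0.39, adjusted p = 0.0405), was lost without any library except day 14 replicate 4 (adjusted p up to 0.117).

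Metabolic and growth lists gave few calls. In the serine, glycine and proline list Slc7a11 was the 1 call among 14. Of 19 fatty acid oxidation genes 17 were negative (median -0.20) and 9 had an unadjusted p under 0.05, against 4372 of all 17457 genes. In this list 2 regulators fell. They were Ppargc1a, the coactivator of mitochondrial genes, at 4.53, 6.7, 5.44 and 9.16 CPM at day 7 and 4.25, 2.68, 2.52 and 3.5 at day 14 (log2FC -0.99 ± 0.25, adjusted p = 0.0288). Ppara, a nuclear receptor for fatty acids, was at 2.66, 4.63, 1.76 and 4.4 CPM at day 7 and 1.36, 0.574, 0.515 and 2.05 at day 14 (log2FC -1.57 ± 0.44, adjusted p = 0.0417). Leaving out day 7 replicates 2 or 4 or day 14 replicates 2 or 3 ended the first call and leaving out day 7 replicates 1, 2 or 4 or day 14 replicates 2 or 3 the second (adjusted p up to 0.0935 and 0.12). All 25 cell division genes had positive values (median 0.34) and 1 was called, Cenpa, the centromeric histone, at 16.2, 11.1, 21 and 17.9 CPM at day 7 and 25, 27.8, 37.2 and 26.3 at day 14 (log2FC 0.81 ± 0.22, adjusted p = 0.0379), lost without day 7 replicates 1, 2 or 4 or day 14 replicates 2 or 3 (adjusted p up to 0.107). None of 24 DNA replication genes was called (median -0.13), and Pcna, the sliding clamp, had -0.14 (adjusted p = 0.516). Of 19 p53 targets and senescence inhibitors Cdkn2a, a locus of cell cycle inhibitors, rose from 1.08, 0.726, 0.989 and 0.951 CPM to 3.84, 5.1, 1.83 and 1.75 CPM (log2FC 1.73 ± 0.46, adjusted p = 0.0354), with the call kept without day 14 replicate 3 or day 14 replicate 4 and lost without any other library (adjusted p up to 0.114). The unfolded protein response list had 21 of 23 members negative (median -0.25) and no call, with Hspa5, the chaperone BiP, at -0.36 (adjusted p = 0.349).

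Lists of glycolysis, cholesterol synthesis, immediate early response and the nuclear-encoded respiratory chain, of 20, 22, 18 and 25 tested genes, had no call by the rule. Pkm, Jun and Atp5b had log2 fold changes of 0.14, -0.13 and -0.22 (adjusted p = 0.679, 0.704 and 0.247). Srebf2, the transcription factor of cholesterol synthesis, had an adjusted p of 0.00564 with a log2 fold change of -0.55, short of the fold change required, at 234, 237, 239 and 251 CPM at day 7 and 178, 151, 168 and 162 at day 14. The 12 mitochondrially encoded genes tested had a median of 0.89 and no call. Their medians were 0.067 in replicate 1 and 1.07 in replicates 2 to 4, where 7 were called, and mt-Co1 was at 10328, 9609, 9583 and 9772 CPM at day 7 and 10116, 18017, 19422 and 17764 at day 14. Of 21 coagulation and fibrinolysis genes F7, the factor that starts the cascade with tissue factor, was the 1 call, at 39, 31.6, 28 and 35 CPM at day 7 and 67.7, 69.3, 62.4 and 59.4 at day 14, held and with no overlap (log2FC 0.95 ± 0.20, adjusted p = 0.016). In replicate 1 alone 5 of 19 fitted were called higher and 1 lower, and in replicates 2 to 4 there was 1, higher. Of 17 circadian clock genes Hlf, an output factor of the clock, was the 1 call, at 28, 24.3, 33.7 and 11.8 CPM at day 7 and 12.8, 10.7, 12.4 and 9.96 at day 14 (log2FC -1.10 ± 0.28, adjusted p = 0.029), kept without day 7 replicate 4 or day 14 replicate 1 and lost without any other library (adjusted p up to 0.0869). The hour of collection is not given in the labels.

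**Figure D5:**
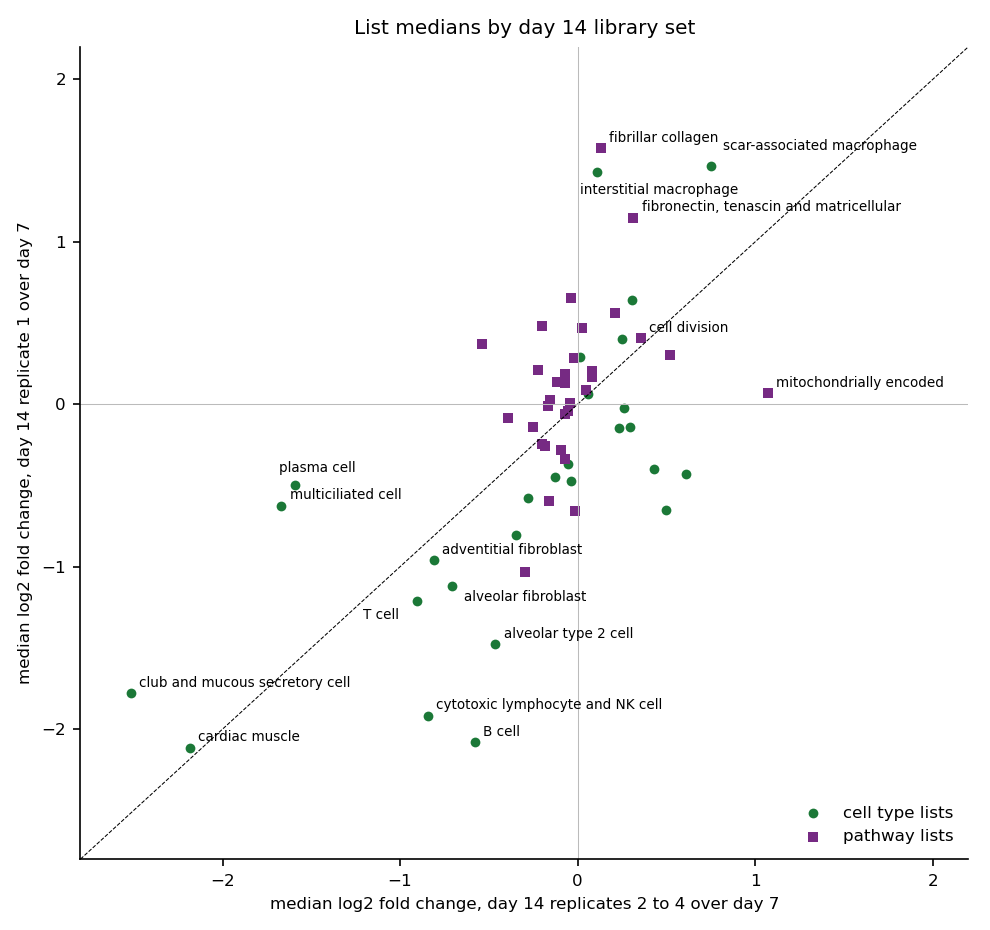
Each point is a gene list, with its median log2 fold change over day 7 in day 14 replicates 2 to 4 on the x axis and in day 14 replicate 1 on the y axis, and the dashed line marks equality. Fibrillar collagens stand at 0.13 and 1.58, alveolar type 2 genes at -0.46 and -1.48, and multiciliated genes at -1.67 and -0.62. The airway basal cell and adipocyte lists are not drawn, since no member passed the filter on low counts in the fit of replicate 1.

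Genes of heart muscle and fat, tissues that adjoin the lung, were high in day 7 replicate 4. Myh6, the heart myosin, was at 0.453, 0.447, 4.12 and 296 CPM at day 7 and 0.0591, 0, 0.114 and 0 at day 14 and was not called (adjusted p = 0.0798), and none of 8 cardiac genes was. Of 6 adipocyte genes 4 were called lower and none was held. Car3, the carbonic anhydrase of fat, was at 1.13, 1.79, 7.85 and 45.8 CPM at day 7 and 0.295, 0.0638, 0.172 and 0 at day 14. Cfd, adipsin, was at 2.49, 3.07, 12.7 and 71.2 CPM at day 7 and 0.295, 0, 0.0572 and 0.362 at day 14. Adipoq, adiponectin, was at 0.453, 0.391, 0.824 and 5.41 CPM at day 7 and 0, 0, 0.114 and 0 at day 14. These 3 genes were highest in day 7 replicate 4, and so was Plin1, perilipin, at 0.566, 0.391, 1.32 and 4.52 CPM at day 7 and 0.0591, 0.191, 0.0572 and 0 at day 14. The summed adipocyte level was 5.21 to 131 CPM at day 7 and 0.687 to 1.48 CPM at day 14. Cfd, Adipoq and Plin1 lost their calls without day 7 replicate 4, among others, and Car3 without day 14 replicate 2 (adjusted p up to 0.0609 for Cfd, 0.0616 for Adipoq, 0.0748 for Plin1 and 0.0555 for Car3). Cfd and Adipoq were also called with the covariate. The part of adjoining tissue in these calls was not tested. Gria1, Kcna2 and Faim2, 3 genes known from neurons and grouped after their values were seen, were also among the largest held falls. For each of them every day 14 library lay below every day 7 library. No list of neuronal genes was counted. Gria1, a glutamate receptor subunit, was at 5.61, 15.1, 10.9 and 11.4 CPM at day 7 and 1.42, 0.765, 1.77 and 2.66 at day 14 (log2FC -2.69 ± 0.41, adjusted p = 0.00391). Kcna2, a potassium channel, was at 5.04, 5.64, 8.35 and 14.6 CPM at day 7 and 3.13, 1.28, 1.37 and 2.05 at day 14 (log2FC -2.09 ± 0.38, adjusted p = 0.00846). Faim2, an inhibitor of Fas-mediated death, was at 6.51, 5.69, 9.5 and 10.6 CPM at day 7 and 3.31, 0.893, 2.29 and 2.84 at day 14 (log2FC -1.79 ± 0.31, adjusted p = 0.00677). Gria1 was called with the covariate (-2.79). The 3 day 0 means were 24.5 ± 2.32, 14.8 ± 4.08 and 26.9 ± 3.83 CPM (SD, n = 4).

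Genes of other annotation classes than protein coding were also counted, by the biotypes of GENCODE M21, a division made after the calls were seen. They include pseudogenes and immunoglobulin and T cell receptor genes beside RNA genes. Of 2588 such genes 162 were higher (6.26%) and 24 lower (0.927%), against 322 (2.17%) and 540 (3.63%) of 14869 coding genes. Among lincRNA genes 40 of 488 were higher (8.2%), among antisense genes 37 of 466 (7.94%) and among processed transcripts 29 of 253 (11.5%). The fit of replicate 1, whose filter left 1102 of them, called 19 higher, that of replicates 2 to 4 called 217 of 2563, and with the covariate 7 of the 2588 were. Summed lincRNA levels were 2634 to 2918 CPM at day 7, 3052 CPM in day 14 replicate 1 and 4321 to 4831 CPM in the other day 14 libraries, and at day 0 they ranged from 3586 to 5587 CPM. At days 0 and 14 the libraries with more mitochondrial counts had the higher sums, and at day 21 replicate 1, with the highest share of its group at 4.01%, had the lowest sum, 3778 CPM against 4317 and 3899.6 CPM. The part of that share in these values was not tested. The library kit does not mark strand and the strand setting of the counting is not stated, so antisense genes cannot be told apart from the genes they overlap.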

How the data were processed

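Polyadenylated RNA of whole lung was sequenced in 15 libraries as paired reads from a kit that does not mark strand. Per the methods, the authors cleaned the reads with TrimGalore, mapped them to mm10 with HISAT2 2.1.0, dropped multi-mapping reads and deposited unscaled read counts per Ensembl gene from HTSeq 0.6.0, and the submitters' processing notes also name DESeq2 1.40.2. The annotation release and strand setting of the counting are not given in the sources used here. Reads of overlapping genes or close copies can therefore be lost or misplaced.

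Counts were fitted with edgeR 4.0.16 in R 4.3.3 (TMM factors, filterByExpr, quasi-likelihood F test), with all 15 libraries in 1 fit and day as the only term. The common biological coefficient of variation was 22.8%. Levels are CPM on TMM-adjusted library sizes, and log2 fold changes of low genes depend on the prior count. The groups hold 4 libraries each, of 16183818 to 18020661 counts. Script steps were tested on simulated data. Symbols, coordinates and biotypes come from GENCODE M21 (GRCm38), which matched 33267 of 33340 identifiers, and the others held 0.00889% of counts.

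Members and the 61 gene lists were chosen with earlier results of these data known. Of 888 list genes 846 were tested. Named genes were the 12 largest rises and 12 largest falls among held genes with a mean of at least 5 CPM, no overlap and no predicted or antigen receptor symbol. To these were added up to 4 called members of each list in each direction, or, with no call, its most abundant member, and Dot1l. The values of 1 gene that this rule names are not reported here. Genes, families, biotypes and motifs outside this rule were chosen after values were seen. Lists were described by counts and medians, without a test.

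Alternatives were DESeq2 1.42.0, limma voom (limma 3.58.1), other scaling, filters and fold rules, length and GC offsets, the mitochondrial share, the replicate number as a block, fewer libraries, and each library left out.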

Additional observations from a re-analysis of the deposited data

Results flagged for a closer look

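By the gap between the highest or lowest library and its nearest neighbour relative to the group's range, 14 of 252 groups of 4 libraries had a library standing apart, or 5.56%. The rate by chance was not computed for these selected genes. At day 7, replicate 4 stood apart with Myh6 at 296 CPM, Cfd at 71.2 CPM, Car3 at 45.8 CPM and Adipoq at 5.41 CPM, so that genes of heart muscle and fat came from the same library. Replicate 1 of day 7 stood apart with the immunoglobulin gene Ighg2c at 851 CPM, with Ltbp2 at 290 CPM and with the complement gene C1qa at 279.8 CPM. Replicate 2 of day 7 stood apart with Lama1 at 5.86 CPM, the lowest of its group, and with Lrrc32 at 136 CPM.

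At day 14, replicate 2 stood apart with Ftl1 at 209 CPM, Krt14 at 8.48 CPM and Col17a1 at 0.255 CPM, the last as the lowest value. Replicate 3 of day 14 stood apart with Col6a5 at 0.572 CPM and Adipoq at 0.114 CPM, both the highest of low values.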

How the results depend on the processing

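The number of genes called depended on the rule and on single libraries. Against 484 higher and 564 lower, the mitochondrial covariate gave 112 and 106 (218 in all), a test against the 1.5-fold bound itself (glmTreat) 6 and 8 (14 in all), and DESeq2 809 and 832 (1641 in all). Leaving out 1 library gave 162 to 642 higher, 163 to 658 lower and 340 to 1300 in all. The fewest were without day 7 replicate 4 (162 and 178) and day 14 replicate 2 (185 and 163), and the most without day 14 replicate 1, which is also the fit of day 14 libraries over 2.5% mitochondrial share. The cause of these shifts was not tested. RLE factors, total count scaling, a filter at 1 CPM or none, days 7 and 14 alone, no day 0 replicate 4, voom, length and GC offsets and no fold rule each stayed within 1.5 times the total, at 919 to 1284.

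Replicate numbers are shared labels. Deviations of same-numbered libraries correlated by 0.0208, 0.145, 0.262 and 0.0911, so the numbers were not taken to pair them, and the replicate block gave 503 higher and 681 lower, 1184 in all.

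Over 126 named genes and all alternatives, 2407 values kept direction and call, 431 lost the call, 19 gained it and 20 changed sign, all 20 in genes not called. Under 2.5% share these were Ager (-0.25), Sema3g (-0.48) and Hbb-bs (-0.15). Over it, which equals leaving out day 14 replicate 1, they were Ptprb (0.016), Gata2 (0.0047) and Pkm (-0.021). The covariate turned Sema3g (-0.34) and length and GC offsets Ptprb (0.057). Fits without 1 library ran from -0.040 to 0.23 for Ager, -0.12 to 0.18 for Krt7, -0.62 to 1.31 for Krt14, -0.12 to 0.068 for Ptprb, -0.064 to 0.28 for Sema3g, -0.22 to 0.17 for Gata2 and -0.021 to 0.27 for Pkm.

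Precision is limited by 4 libraries a day and by few counts in genes near or under 1 CPM.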
